A study of Mus musculus with 5 samples.

Results

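The effect of a Sox13 transgene on chromatin accessibility was examined in SOX13hi γδ thymocytes, by comparing the ATAC-seq peak list of transgenic cells (tg_SOX13hi) with that of non-transgenic cells (SOX13hi), 1 library each, on the 19 autosomes. Peaks of all 5 libraries of the series were joined into regions wherever they overlapped by at least 1 bp. Of the 153269 autosomal regions, 65559 held a peak of tg_SOX13hi or SOX13hi, and these are described here. A region with a peak in tg_SOX13hi and none in SOX13hi is called gained, and the reverse lost. These words describe presence in 2 peak lists, not a tested change. Both libraries came from C57BL/6 animals that lacked TCRbeta and carried ECFP knocked into 1 Sox13 allele (genotype TCRbeta KO.Sox13 ECFP KI/+). The tg_SOX13hi animals carried the Sox13 transgene in addition (TCRbeta KO.Sox13tg+.Sox13 ECFP KI/+). The cells were CD24+ γδ thymocytes with high CFP, sorted in the same number for every library. The labels do not state the promoter of the transgene, the number of animals, whether animals were pooled, or their age. The other libraries were the CFP-low to CFP-negative fractions of the same 2 genotypes (SOX13lo and tg_SOX13lo) and double-positive (DP) thymocytes of wild-type C57BL/6 animals.

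SOX13 is an HMG-box transcription factor that is expressed early in γδ thymocyte development and is known for its role in γδ T cells that later make interleukin 17 (γδ17 cells), together with SOX4 and the kinase BLK. In the reporter animals CFP marks transcription from the Sox13 gene, so the fraction names follow CFP and not the SOX13 made from the transgene. ATAC-seq uses a transposase that inserts sequencing adapters into open DNA, and clusters of insertions are called as peaks, often at promoters and enhancers.

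The SOX13hi list held 53009 autosomal peaks over 5.11 Mb and the tg_SOX13hi list 62159 peaks over 5.69 Mb, against 32167 to 110707 peaks in the other 3 lists. The score that the authors gave each peak had a median of 12 and a minimum of 7 in both lists, and its meaning is not stated, so it ranks peaks within a list only. Depth and openness both lengthen a peak list, and depth is unknown. Each comparison was therefore repeated with the 53009 highest-scoring peaks of each list. The 9150 peaks that this removed from tg_SOX13hi all had the lowest score. In bulk sorted cells, fewer cells with an open site and less signal per cell cannot be told apart. The tg_SOX13hi and DP libraries carry identical index sequences in their labels. Chromosome Y, outside the comparison, held 4.43 of every 1000 tg_SOX13hi peaks and 1.47 of every 1000 SOX13hi peaks.

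Strong accessible sites were nearly all common to both libraries, and the differences lay among weak peaks. Of the tg_SOX13hi peaks, 52.0% met a SOX13hi peak by at least 1 bp (32317 of 62159, exact Clopper-Pearson 95% interval 51.6 to 52.4). Of the SOX13hi peaks, 61.3% met a tg_SOX13hi peak (32478 of 53009, 60.9 to 61.7). With equal numbers of peaks the shares came close together, at 57.7% (57.3 to 58.1) of tg_SOX13hi peaks and 58.7% (58.3 to 59.2) of SOX13hi peaks. Intervals cover counting error only and treat peaks as independent. In tg_SOX13hi the shared part was 27.8% among peaks below the 50th percentile of score, 63.6% from the 50th to the 75th percentile, and 90.8% to 96.0% in the 4 classes above. In SOX13hi it was 39.1%, 74.2%, and 93.2% to 96.6% in the same classes. Peaks of 28 to 30 bp, which made up 46.7% of the tg_SOX13hi list and 45.4% of the SOX13hi list, were shared less often (32.2% and 41.9%) than wider peaks (69.3% and 77.4%).

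**Figure D1:**
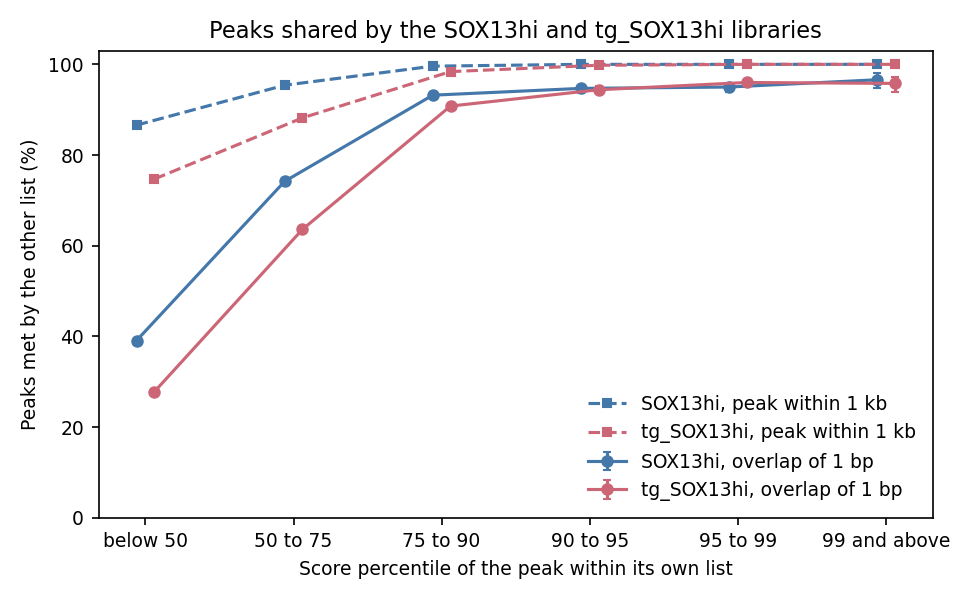
Share of peaks met by the other list (y axis, %) against the score percentile of the peak within its own list (x axis), for SOX13hi and tg_SOX13hi, with solid lines for an overlap of 1 bp (bars, 95% Clopper-Pearson intervals) and dashed lines for a peak within 1 kb. Sharing rises from 27.8% and 39.1% in the lowest class to 95.8% and 96.6% in the highest, and all peaks from the 95th percentile up have a peak of the other list within 1 kb.

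The strongest 1 bp differences lay directly beside a peak of the other list. Measured from the region's edge, all 10 highest-ranked gained regions had a SOX13hi peak 13 to 112 bp away (median 45.0 bp), and all 10 highest-ranked lost regions had a tg_SOX13hi peak 13 to 296 bp away (median 86.0 bp). For 7 of the 10 gained regions, 1 of the 10 lost regions lay within 500 bp. The highest-ranked pair lay on chromosome 1 of mm9, with a tg_SOX13hi peak (score 355) in the region 7078854 to 7079195 and a SOX13hi peak (score 348) at 7078664 to 7078776. The SOX13hi peak lay 129 bp from the tg_SOX13hi peak itself, and 77 bp from the edge of the merged region. At the Ikzf1 locus, which encodes the lymphoid transcription factor IKAROS, the gained region on chromosome 11 at 11626078 to 11626398 (score 173) lay, edge to edge of the merged regions, 36 bp from a lost region at 11625990 to 11626041 (score 171). A further alternative, chosen after these values were seen, therefore counted a region only if no peak of the other list lay within 1 kb.

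Regions gained outnumbered regions lost, more so among sites with nothing nearby. With all peaks, 22686 regions were gained (34.6%), 13997 were lost (21.4%) and 28876 were present in both. The ratio of gained to lost was 1.62, and with equal numbers of peaks it was 1.09 (16707 and 15340), so the excess was smaller in lists of equal length. With no peak of the other list within 1 kb, 9796 regions were gained (14.9%) and 4140 lost (6.31%), a ratio of 2.37, or 1.40 with equal numbers (7290 and 5205). When both lists were limited to the 26504 highest-scoring peaks the latter ratio was 1.26 (3869 and 3073). On the single chromosomes the ratio of gained to lost with all peaks ran from 1.29 on chromosome 3 to 2.54 on chromosome 11, where 43.0% of regions were gained and 16.9% lost.

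Strong sites with no counterpart within 1 kb were few. A high-scoring region is one whose best peak was in the highest 25% of its own list (score 27 or more in tg_SOX13hi, 29 or more in SOX13hi). Of 13874 high-scoring tg_SOX13hi regions, 154 (1.11%) had no SOX13hi peak within 1 kb, and of 11797 high-scoring SOX13hi regions, 28 (0.237%) had no tg_SOX13hi peak within 1 kb. From the 90th percentile of score these numbers fell to 6 and 0, and from the 95th to 0 and 0. Within the same number of top ranks (13252) in full lists they were 85 and 34, and with lists of equal number 85 and 53.

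The 6 strongest sites of tg_SOX13hi without a counterpart lay outside the listed T cell loci. The highest scored 86, on chromosome 8 at 8381938 to 8381976, and no other library held it. The next, on chromosome 5 at 105356872 to 105357227, scored 84 in tg_SOX13hi, 112 in tg_SOX13lo, 46 in DP and 11 in SOX13lo, so among the 5 libraries only SOX13hi lacked it. The third, on chromosome 2 at 27356964 to 27357299, scored 72 in tg_SOX13hi, 86 in tg_SOX13lo, 24 in DP and 10 in SOX13lo, and its nearest SOX13hi peak was 1276 bp away. A site on chromosome 11 at 118109842 to 118110029 scored 70 and was otherwise held by SOX13lo alone (15). A site on chromosome 5 at 121902305 to 121902599 scored 66, with 179 in DP, 43 in SOX13lo and 11 in tg_SOX13lo. Scores are given to describe each list and are not on a common scale.

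Among sites of SOX13hi without a counterpart in tg_SOX13hi, the strongest scored 58, on chromosome 1 at 10870425 to 10870719, and was held by SOX13lo (9) and by neither tg_SOX13lo nor DP. The next, on chromosome 3 at 127791234 to 127791422 (score 42) and chromosome 7 at 78531125 to 78531403 (score 40), were likewise held by SOX13lo alone of the other libraries. A site on chromosome 2 at 77865489 to 77865662 scored 38 and was held by SOX13lo (21) and DP (62). None of the 28 lay in a listed locus.

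Regions were next counted in windows of 100 kb. A window was called when tg_SOX13hi and SOX13hi differed by at least 3 regions, after SOX13hi was scaled by the ratio of the totals (1.20), and the sign was the same with equal numbers of peaks. Of 11636 windows with a region in the pair, 654 (5.62%) had more regions in tg_SOX13hi and 803 (6.90%) had fewer. With a difference of at least 5 regions the counts were 173 and 196. A call is a rule of size and not a test. The median scaled difference over all these windows was -0.20 regions.

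The window with the largest excess in tg_SOX13hi, on chromosome 2 at 27300001 to 27400000, held 27 regions in tg_SOX13hi and 5 in SOX13hi, and 21 in tg_SOX13lo, 8 in SOX13lo and 22 in DP. The second was a window of the Sox13 locus on chromosome 1 at 135200001 to 135300000, described with the genes below. The third, on chromosome 1 at 87400001 to 87500000, held 17 regions in tg_SOX13hi, 3 in SOX13hi, 13 in tg_SOX13lo, 5 in SOX13lo and 3 in DP. In these windows both transgenic lists held more regions than either non-transgenic γδ list, although the tg_SOX13lo list was the shortest of the series. The fourth (chromosome 8, 19900001 to 20000000) had 20 regions in tg_SOX13hi, 3 in SOX13hi, 39 in tg_SOX13lo, 11 in SOX13lo and 3 in DP. The last (chromosome 5, 105300001 to 105400000) had 9, 0, 7, 3 and 8 in the same order of libraries. It contains 3 high-scoring gained sites with no SOX13hi peak within 1 kb, among them the second-ranked site above. All 5 windows were also above the scaled count of SOX13lo in tg_SOX13lo, a comparison that shares no library with the present one.

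The window with the largest deficit, on chromosome 15 at 19700001 to 19800000, held 5 regions in tg_SOX13hi and 15 in SOX13hi. SOX13lo had 2 regions there, DP 1 and tg_SOX13lo 0, so the density of peaks stood out in SOX13hi and no strong site was lost (0 high-scoring regions without a tg_SOX13hi peak within 1 kb). On chromosome 3 at 144000001 to 144100000, tg_SOX13hi held 10 regions and SOX13hi 17, with 19 in SOX13lo, 4 in tg_SOX13lo and 14 in DP. The other 3 were a window of the T cell receptor γ locus, chromosome 9 at 94500001 to 94600000 (20 against 24) and chromosome 7 at 17400001 to 17500000 (17 against 21). A window singled out after its values were seen (chromosome 2, 106600001 to 106700000) had 4 regions in SOX13hi and 0 in each of the other 4 libraries.

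**Figure D2:**
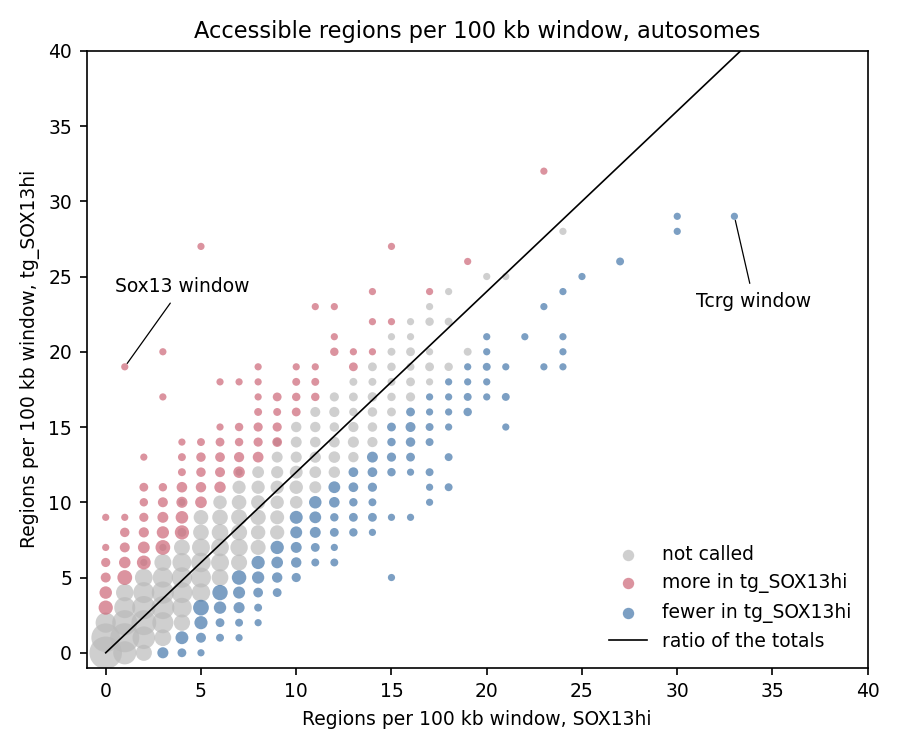
Accessible regions per 100 kb autosomal window in SOX13hi (x axis) and tg_SOX13hi (y axis), with dot area growing with the number of windows, red for windows called more in tg_SOX13hi, blue for windows called fewer, and a line at the ratio of the totals (1.20). Most windows lie along the line, the Sox13 window (1 and 19 regions) lies far above it and the Tcrg window (33 and 29) below it, and 2 windows with over 40 regions lie outside the axes.

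Named T cell genes were examined through 87 loci, each made of the 100 kb windows touched by the gene and 10 kb on either side. A window also holds neighbouring genes, and no peak was assigned to a gene. Of these windows, 155 held a region of the pair, and they were denser than the 11481 windows outside the list (mean 9.77 against 5.58 regions), so a fixed difference is reached more easily there. In them 22 (14.2%) had more regions in tg_SOX13hi and 22 (14.2%) had fewer, against 5.62% and 6.90% of all windows with a region of the pair. A locus was called by the same rule on the sum over its windows, so loci of more windows reach it more easily. By locus, 20 of 87 were called more, 18 fewer and 49 neither, and the counts of each gene group are to be read against these. Sox5, Rora, Cd3, Bcl11b, Tcra-Tcrd and Satb1 were called as loci although none of their single windows was called. Of the 1514 regions in listed loci, 38.3% were gained and 22.0% lost, against 34.6% and 21.4% of all regions. Among the highest 26504 scores of each list, 23 of the 25 named loci had a smaller scaled difference, and 4 reached 3 regions (Sox13, Ly6, Egr2 and Ccr9). With all peaks and neighbours joined within 150 bp, the Egr2 difference was -0.97 regions, against -6.85 without joining. Counting error was large for most loci. The 95% interval of the region ratio (exact, from the binomial share) lay above the ratio of the totals at Sox13. It did so too at Zbtb7b, with a lower bound that rounds to that ratio. At Tcrg it lay below, with an upper bound (1.19) close to that ratio, and it included the ratio at the other 84 loci. Among 87 such intervals, some are expected to miss that ratio by counting error alone.

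The labels of the cells were examined through loci of other lineages. The 7 B cell and myeloid loci held 0 to 8 regions each in tg_SOX13hi and 1 to 7 in SOX13hi, and none was called in either direction. Lyz2, which encodes lysozyme of myeloid cells, had the fewest (0 and 1), and Ebf1 and Cebpa (8 and 7 each) the most. Pax5, the B lineage regulator, had 4 and 4. The T lineage loci Cd3, Cd247, Lck, Bcl11b, Tcf7, Gata3 and Thy1 ran from 12 (Thy1) to 26 (Cd247) in tg_SOX13hi. In SOX13hi they ran from 7 (Tcf7) to 25 (Cd247), so there the ranges of the lineages met. The Cd3 cluster, which encodes invariant chains of the T cell receptor complex, held 16 regions in tg_SOX13hi and 10 in SOX13hi. At Cd8a-Cd8b1, the coreceptor genes of DP cells, the pair had 11 and 8 regions against 138 in DP.

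Sox13 stood far from all other listed loci. Its windows held 25 regions in tg_SOX13hi (exact Poisson 95% interval 16.2 to 36.9) and 1 in SOX13hi (0.0253 to 5.57), a ratio of 25 (4.09 to 1026). SOX13lo had 10, tg_SOX13lo 13 and DP 15. SOX13hi, sorted for high CFP, thus had the fewest regions of the 5 libraries at the gene whose transcription CFP marks. The tg_SOX13hi count was the highest of the 5. The large ratio rests on both counts, and its cause was not tested. Names inside the SOX13lo file read SOX13hi, as given in the processing section. All 24 gained regions there had no SOX13hi peak within 1 kb, against 9796 of 22686 over all regions, and 5 of them were high-scoring. The region at 135279404 to 135280195 scored 59 in tg_SOX13hi and 780 in tg_SOX13lo, and was absent from SOX13hi, SOX13lo and DP. The region at 135289684 to 135289718 scored 41 and 123 in the transgenic lists and was absent from the other 3. At 135278905 to 135279149 and 135279178 to 135279396, further high-scoring regions (37 and 38) had a peak in tg_SOX13hi only. They lie in a row directly beside the region at 135279404 to 135280195, where tg_SOX13lo had its peak of score 780. The high-scoring regions here may therefore not all be separate sites. The 1 region in common, at 135296652 to 135296860, was also in SOX13lo and DP. A Sox13 transgene carries Sox13 sequence, so reads of the transgene and of the endogenous gene cannot be told apart in these lists.

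Over the 9 loci of SOX13 and other γδ17 regulators, 4 were called more (Sox13, Blk, Sox5 and Rora), 1 fewer and 4 neither. Sox5 spans 5 windows and Rora 9, and no single window of either was called. In this group 50.3% of 169 regions were gained and 16.6% lost, and Sox13 supplied 24 of the 85 gained. Without Sox13, 42.4% of 144 regions were gained and 19.4% lost, near the 38.3% and 22.0% of all listed loci, and the ratio interval of each of the 8 other loci included the ratio of the totals. Blk, a SRC-family kinase of γδ17 cells, held 18 regions in tg_SOX13hi and 9 in SOX13hi, with 7 in SOX13lo, 4 in tg_SOX13lo and 13 in DP. Its main sites, at 63996141 to 63996566 and 64035648 to 64035909 of chromosome 14, were held by all 5 libraries, and the site at 64007932 to 64008187 was in SOX13hi (40) and tg_SOX13hi (52) alone. The gained Blk regions were weaker, with a best percentile of 58.0. Sox5, another SOX gene, had 7 against 3 regions and Rora, a nuclear receptor, 19 against 13. Sox4, the HMG-box partner in the γδ17 programme, was called fewer, with 13 against 14 regions before scaling. Maf (10 against 6), Etv5 (15 against 12) and Zbtb16 (13 against 11) were among the loci not called.

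Genes that act later in γδ17 cells showed no common direction. Il1r1, the interleukin 1 receptor, held 9 regions in tg_SOX13hi and 3 in SOX13hi, with 4 in SOX13lo, 2 in tg_SOX13lo and 4 in DP. Its strongest site, on chromosome 1 at 40327856 to 40328282, was in all 4 γδ libraries (score 100 in tg_SOX13hi and 77 in SOX13hi) and not in DP. Il23r, the interleukin 23 receptor, was called fewer, with 15 against 17 regions. The cytokine genes Il17a-Il17f (5 against 2), the chemokine receptor Ccr6 (4 against 3) and Il7r (11 against 9) were not called. Of the 6 loci of type 1 and mature γδ cells, Il2rb was called more (10 against 5), Cd27, a costimulatory receptor kept by interferon γ producers, fewer (16 against 18), and Tbx21, Eomes, Ifng and Nt5e neither.

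With all peaks and with equal numbers, the T cell receptor γ locus (Tcrg) had the largest deficit of regions among the listed loci. The scaled difference was -24.57 regions with all peaks and -2.43 among the highest 26504 scores, where Egr2 (-7.34) was lower. Its 3 windows on chromosome 13 held 50 regions in tg_SOX13hi (37.1 to 65.9) and 62 in SOX13hi (47.5 to 79.5), 65 in SOX13lo, 13 in tg_SOX13lo and 28 in DP. Counts were 44 and 62 with equal numbers of peaks, and the ratio of 0.806 (0.544 to 1.19) lay under that of the totals. All 3 windows were called fewer, with 10 against 11, 11 against 18 and 29 against 33 regions. The main sites remained: 19487637 to 19487787 scored 137 in tg_SOX13hi and 120 in SOX13hi, 19274122 to 19274674 scored 68 and 100, and 19428854 to 19429266 scored 46 and 74. A SOX13hi peak in the region 19448156 to 19448209 (score 123) was absent from tg_SOX13hi, which had a peak of score 185 at 83 bp. Of 36 lost regions in the locus, 9 had no tg_SOX13hi peak within 1 kb, against 4140 of 13997 over all regions. None of those 9 was high-scoring. The strongest, at 19254072 to 19254259, scored 16 in SOX13hi and was held by SOX13lo (28) and DP (29).

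At Tcra-Tcrd, where the α and δ chain genes lie together, tg_SOX13hi had 15 regions and SOX13hi 17, called fewer, with 12, 12 and 61 in SOX13lo, tg_SOX13lo and DP. Its strongest site, on chromosome 14 at 54846933 to 54847486, was held by all 5 libraries. Tcrb held 21 against 17 regions and was not called. Over the 3 receptor loci, 28.4% of 134 regions were gained and 35.8% lost. Tcrg supplied 36 of the 48 lost regions, and Tcrb had 7 gained and 3 lost.

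Loci of receptor signalling and its response genes went in both directions, with 2 called more, 4 fewer and 6 neither. Nr4a1, an early response gene of antigen receptor signalling, held 18 regions in tg_SOX13hi and 8 in SOX13hi, and 18 in SOX13lo, 9 in tg_SOX13lo and 55 in DP. Its gained sites at 101054492 to 101054687 and 101146322 to 101146493 of chromosome 15 (scores 25 and 22) were also in SOX13lo and DP, with no SOX13hi peak within 1 kb. Cd3 was the other locus called more. Egr2 (16 against 19), Egr3 (10 against 11), Cd69 (14 against 16) and Cd247 (26 against 25) were called fewer after scaling. EGR2 and EGR3 are transcription factors induced by receptor signals, and CD69 is an activation marker. The strongest Egr2 site, on chromosome 10 at 66999658 to 67000682, and the strongest Cd69 site, on chromosome 6 at 129234329 to 129235047, were held by all 5 libraries and lay above the 99th percentile of the tg_SOX13hi list. At Egr2 a site at 67044749 to 67044961 (score 28 in SOX13hi) was in SOX13lo (31) and DP (36) and absent from both transgenic lists. Rasgrp1, an activator of RAS signalling that was not called, held the 1 high-scoring gained site of the listed loci, apart from those at Sox13, with no SOX13hi peak within 1 kb, on chromosome 2 at 117190025 to 117190179 (score 27), seen in no other library.

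Among 25 regulators of the T lineage, 8 were called more and 4 fewer, and 40.7% of 423 regions were gained and 21.5% lost, again near the shares over all listed loci. Tcf7, which encodes the T cell factor TCF1, held 19 regions in tg_SOX13hi (11.4 to 29.7) and 7 in SOX13hi (2.81 to 14.4), with 16 in SOX13lo, 9 in tg_SOX13lo and 116 in DP. The counts were 13 and 7 with equal numbers of peaks, and the interval of the ratio (2.71, 1.09 to 7.64) included that of the totals. Of its 12 gained regions, 8 had no SOX13hi peak within 1 kb, against 9796 of 22686 over all regions, and none was lost. The strongest gained region was on chromosome 11 at 52113228 to 52113495 (score 16), also in SOX13lo (40) and DP (16). A site at 52127342 to 52127646 scored 67 in tg_SOX13hi and 12 in SOX13hi, at percentiles 91.4 and 46.3 of their own lists.

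The E protein gene Tcf3 held 13 against 4 regions (13 against 4 also with equal numbers), none lost. Runx1 held 19 against 10, with 18, 4 and 82 in SOX13lo, tg_SOX13lo and DP, and Bcl11b, a factor of T cell commitment, 17 against 10, with 14, 6 and 79. At Runx1 the gained sites at 92762242 to 92762337 and 92698841 to 92699196 of chromosome 16 (scores 25 and 23) were also in SOX13lo and DP. At Bcl11b the gained site at 109231413 to 109231473 of chromosome 12 (score 22) was held by every library but SOX13hi. Runx3 (11 against 6), Ets1 (26 against 18), Notch1 (8 against 4) and Il2ra (20 against 13) were the other loci called more. Ikzf1, named for its shifted peak above, held 30 against 24 regions and was not called.

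Bcl2, Foxo1, Bach2 and Satb1 were called fewer after scaling. Bcl2, the survival gene, held 19 regions in tg_SOX13hi and 23 in SOX13hi, with 38, 14 and 46 in SOX13lo, tg_SOX13lo and DP. Its strongest site, on chromosome 1 at 108656106 to 108656761, was in all 5 libraries, and the lost site at 108419650 to 108419758 (score 17) was in SOX13hi alone. Foxo1, a factor of survival and homing, held 5 against 9 regions, with 5 lost and 1 gained. Bach2 held 22 against 21 and Satb1 7 against 9.

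Loci of the αβ lineage were also mixed, with 2 called more, 2 fewer and 4 neither. Zbtb7b, which encodes the CD4 lineage factor ThPOK, held 17 regions in tg_SOX13hi (9.90 to 27.2) and 5 in SOX13hi (1.62 to 11.7), a ratio of 3.40 (1.20 to 11.8), with 11, 7 and 42 in SOX13lo, tg_SOX13lo and DP. Of 12 gained regions there, 8 had no SOX13hi peak within 1 kb, against 9796 of 22686 over all regions, and none was lost. The strongest, on chromosome 3 at 89200214 to 89200380 (score 22), was also in tg_SOX13lo (10) and DP (20). Dntt, which encodes the terminal transferase that adds nucleotides during receptor gene recombination, held 17 against 8 regions, with 9, 5 and 51 in the others. Rag1-Rag2, the recombinase genes, held 18 against 19 and Cd4 10 against 11, both called fewer after scaling. Cd8a-Cd8b1, Ptcra, Cd1d1 and Bcl6 were not called.

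Trafficking and surface genes gave 2 loci called more, 3 fewer and 7 neither. The Ly6 cluster held 33 regions in tg_SOX13hi and 18 in SOX13hi, with 26, 15 and 115 in SOX13lo, tg_SOX13lo and DP. Of its 20 gained regions, 11 had no SOX13hi peak within 1 kb, against 9796 of 22686 over all regions. Its leading site, on chromosome 15 at 74916649 to 74917501, was above the 99th percentile in all 4 γδ lists. Ccr7, a chemokine receptor of lymphoid homing, held 12 against 4 regions, with 5, 2 and 34 in the others. Ccr9, the receptor for the thymic and gut chemokine CCL25, held 17 against 19, and Cd44, an adhesion receptor, 11 against 14. At Cd44 the leading site, on chromosome 2 at 102726530 to 102727180, scored 192 in SOX13hi and 155 in tg_SOX13hi, was weak in SOX13lo (19) and was absent from tg_SOX13lo. Tnfrsf1b-Tnfrsf8, tumour necrosis factor receptor genes, held 46 against 44 regions, called fewer after scaling.

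**Figure D3:**
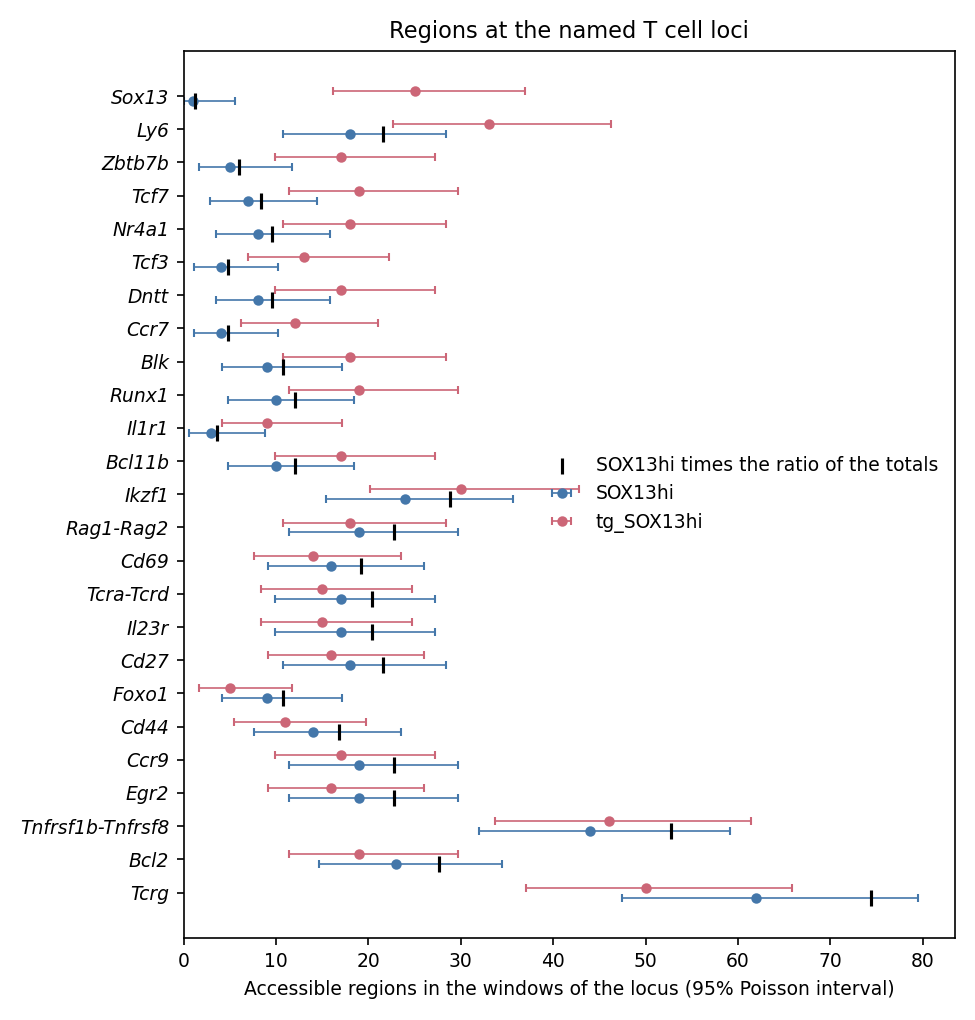
Accessible regions (x axis) in the windows of the 25 named loci (y axis, ordered by scaled difference) in SOX13hi (blue) and tg_SOX13hi (red), with exact Poisson 95% intervals, and black ticks at the SOX13hi count times the ratio of the totals. The 2 intervals are apart at Sox13 (1 and 25) and overlap at every other named locus. Tcrg (62 and 50) lies under its tick.

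The SOX13lo fraction offers the same contrast in libraries that are not part of the pair. Of the 20 loci called more in tg_SOX13hi, 15 also had a scaled difference above 0 in tg_SOX13lo against SOX13lo, with 5 at 3 regions or more and 2 at -3 or less. Of the 18 called fewer, 7 were above 0, 2 of them at 3 or more, and 3 were at -3 or less. Of the 49 not called, 23 were above 0. Among autosomal windows, tg_SOX13lo was higher in 55.5% (51.6 to 59.4) of those called more in tg_SOX13hi and in 41.0% (37.5 to 44.5) of those called fewer. It was higher in 42.2% (41.2 to 43.1) of all 10179 uncalled windows, and in 51.9% (50.5 to 53.3) of the 5030 uncalled windows with 6 or more regions counted over both lists. The share for fewer thus overlapped that of all uncalled windows and lay under that of the denser ones. The share for more lay above that of all uncalled windows and overlapped that of the denser ones. The intervals for more and for fewer did not overlap each other.

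The regions gained in tg_SOX13hi were found in the other libraries in different proportions from those lost. Of 426 high-scoring gained and 202 high-scoring lost regions, SOX13lo held 50.9% and 53.5% (ratio 0.953, 95% interval 0.813 to 1.12). The tg_SOX13lo list held 41.3% and 30.2% (ratio 1.37, 1.08 to 1.74), and DP 52.1% and 37.1% (1.40, 1.15 to 1.72). Each of these shares was under that of common regions that were high-scoring in tg_SOX13hi, of which SOX13lo held 95.5%, tg_SOX13lo 82.5% and DP 90.9%. Among the 154 gained and 28 lost with no peak of the pair's other list within 1 kb, the shares were 55.8% and 60.7% in SOX13lo (ratio 0.920, 0.662 to 1.28), 46.8% and 7.14% in tg_SOX13lo (6.55, 1.70 to 25.1), and 66.2% and 32.1% in DP (2.06, 1.19 to 3.57). The tg_SOX13lo ratio rests on 2 lost regions held of 28. The intervals for SOX13lo included 1, and those for tg_SOX13lo and DP lay above 1, with gained sites held more often. The part of the index label that tg_SOX13hi and DP have in common was not tested.

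Most strong gained sites were not unique to the transgenic SOX13hi library. Of the 154, 39 (25.3%) were present in all 3 other libraries, 30 (19.5%) in SOX13lo and DP only, 26 (16.9%) in none and 9 (5.84%) in tg_SOX13lo only. Of the 28 strong lost sites, 10 were in no other library, 8 in SOX13lo only and 7 in SOX13lo and DP only.

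**Figure D4:**
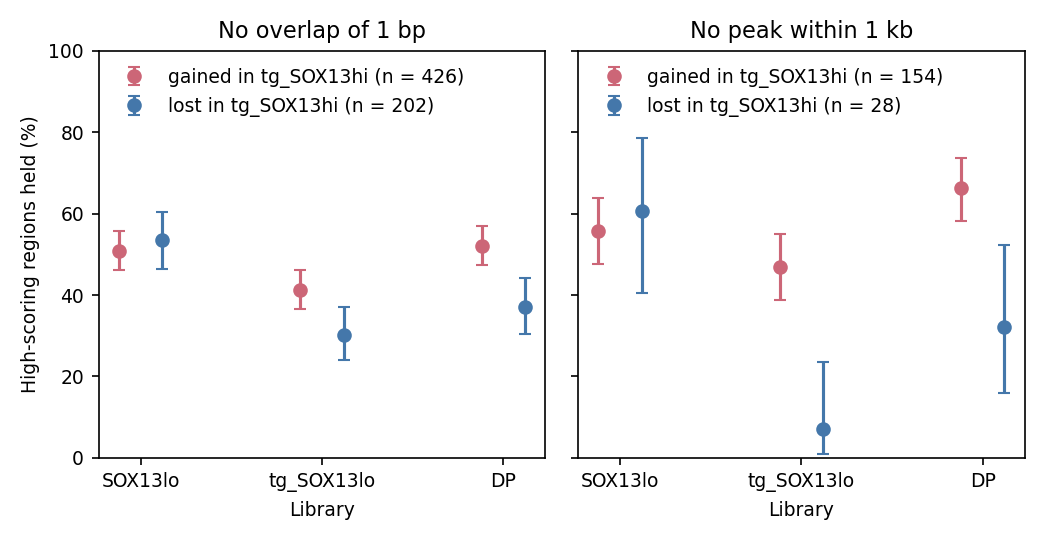
Share of high-scoring gained (red) and lost (blue) regions held by each of the other 3 libraries (y axis, %, with exact 95% intervals), for regions without an overlap of 1 bp (left) and without a peak within 1 kb (right). SOX13lo holds 55.8% and 60.7% on the right, and tg_SOX13lo (46.8% against 7.14% on the right) and DP (66.2% against 32.1%) hold more of the gained.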

How the data were processed

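Peak lists of 5 ATAC-seq libraries were used, 1 per group, with no replicates. The files have no header, and columns were read as chromosome, start, end, name, score and strand. Per the labels' protocols, every library came from the same number of sorted cells. The score is the authors' deposited whole number, and what it counts is not stated. The build is mm9 by the submitters' processing notes, and positions are printed counting from 1. Aligner, peak caller, threshold and depth: not given in the sources used here. Names inside the SOX13lo file read SOX13hi, and the sample label was followed.

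Peaks of all 5 lists that overlapped by 1 bp were merged into regions, and each region was assigned by its centre to a 100 kb window. For equal numbers, the 53009 highest scores of each list were kept, with tied scores ordered at random (seed 1). No test across libraries was possible with 1 library per group, and no p-value is given. Intervals are exact Clopper-Pearson, exact Poisson and, for ratios of shares, log-normal 95% intervals. The overlap of peaks and the numbers of gained and lost regions were tested on simulated lists. Counts by window, by locus and within 1 kb were not. Locus positions on mm9 were approximate and from general knowledge. The order of the 87 loci and the spacing of all 70 neighbouring pairs (within 10%, largest difference 6.97%) were checked against a RefSeq gene table of GRCm38, whose coordinates were not used. No mm9 sequence was used here.

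Named loci are the 12 per direction that differed most after scaling, Sox13, Tcrg, and loci holding a gained or lost region in the highest 5% of scores. Other listed loci are given by count and values, and 1 of them is not reported here by name. Named windows are the 5 largest in each direction with equal numbers, and named sites the 10 highest-ranked. The loci, lists and rules were chosen with earlier results of these data known. Alternatives were equal numbers, 50% reciprocal overlap, centres within 200 bp, neighbours joined within 150 bp, all chromosomes and a difference of 5. A peak within 1 kb, the upper 26504 scores and another order of ties were added after seeing the data. Tools were scipy 1.17.1, pandas 2.3.3, numpy 2.4.6, matplotlib 3.10.9 and Python 3.11.15.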

Additional observations from a re-analysis of the deposited data

Results flagged for a closer look

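The transgene difference had opposite signs in the CFP-high and CFP-low fractions at 31 of the 87 listed loci, 12 of them among the 38 called loci. At 4 called loci it also reached 3 regions in the CFP-low fraction. The difference between the fractions was not tested. At Sox4 the scaled difference was 5.97 regions in the SOX13lo fraction and -3.84 in the SOX13hi fraction. At Tcra-Tcrd it was 6.97 and -5.45. At Il2rb it was -3.61 and 3.99, and at Runx1 -3.55 and 6.97.

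Chromosome Y lies outside the autosomal comparison. It held 4.43 of every 1000 tg_SOX13hi peaks, against 1.47 in SOX13hi, 1.45 in SOX13lo, 7.06 in tg_SOX13lo and 2.89 in DP. Both transgenic lists were above the non-transgenic γδ lists.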

How the results depend on the processing

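The share of tg_SOX13hi peaks that met SOX13hi (52.0%) was 57.7% with equal numbers, 57.6% with another order of ties, 18.0% with 50% reciprocal overlap, 68.7% with centres within 200 bp, 57.3% with joined peaks, 68.8% in the upper 26504 scores and 83.8% within 1 kb. The share of SOX13hi peaks (61.3%) was 58.7%, 58.7%, 21.1%, 79.7%, 68.0%, 69.5% and 92.0% in the same order. Gained regions (22686) fell to 6240 in the upper scores and 9796 with none within 1 kb, and lost regions (13997) to 5723 and 4140, or 8671 with joined peaks. Windows with more regions (654) numbered 384 with equal numbers, 399 with another order of ties, 385 joined, 91 in the upper scores and 173 with a difference of 5. Windows with fewer (803) numbered 376 joined, 165 in the upper scores and 196 with a difference of 5. The gained-to-lost ratio held by tg_SOX13lo (1.37) was 1.91 joined and 6.55 within 1 kb, and that by DP (1.40) was 1.13 in the upper scores and 2.06 within 1 kb.

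The calls require the same sign with equal numbers, so that setting says nothing of their stability. Of the named loci that were called, the upper scores turned Blk (-0.11), Ccr7 (-0.05), Tcra-Tcrd (1.86) and Rag1-Rag2 (1.84), and joined peaks turned Rag1-Rag2 (0.84). Joined peaks also took Egr2 (-6.85 to -0.97), Cd27 (-5.65 to -2.16), Foxo1 (-5.82 to -2.98) and Runx1 (6.97 to 2.23) under a difference of 3 regions. The remaining called loci among those named stayed at 3 or more with joined peaks. In the upper scores 10 further named loci moved, among them Sox13 (23.80 to 10), Tcrg (-24.57 to -2.43), Tcf7 (10.58 to 2.93), Zbtb7b (10.99 to 0.91), Tcf3 (8.19 to 0.93) and Il1r1 (5.39 to 0.98). Ikzf1, not called, was also among them and changed sign (1.14 to -2.41). That setting counts fewer peaks. The cause was not tested otherwise. No paired analysis was possible because each group has 1 library, and no library could be left out. The unknown depth limits every absence to these lists.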
